A study of Secale cereale x Triticum turgidum subsp. durum with 39 samples.

Results

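The 99 probe sets described here were bright in mature pollen and in anthers with tricellular pollen, and dim in anthers up to the bicellular stage and in ovaries and stigmas at the last stage sampled. They were chosen on the values themselves. The mean log2 signal of 3 arrays had to be at least 10 in mature pollen and at most 6 in ovaries and stigmas at the tricellular stage. It also had to be at most 6 in anthers at the tetrad, uninucleate and bicellular stages, with mature pollen less than 1.5 above anthers at the tricellular stage. Of 61290 probe sets on the array, 61160 were eligible: the 111 control probe sets and 19 probe sets with a gene symbol that is not a locus number were dropped. A pollen mean of at least 10 was met by 1874, dim ovaries and stigmas left 371, and dim tetrad and uninucleate anthers left 309. The cap at the bicellular stage removed 195 of these and left 114. The limit on the last step removed 15 more.

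Triticale is a cereal bred by crossing wheat with rye, and total RNA of its cultivar Alta was hybridised to a wheat expression array. Growth-chamber plants gave anthers, ovaries and stigmas at 4 stages set by the pollen in the anther, with TET for tetrads, UNM for uninucleate microspores, BCP for bicellular and TCP for tricellular pollen. Mature pollen, MPG, completed the 13 groups of 3 biological replicates, and an array is named below by its group and replicate number. RNA was prepared differently at different stages. TET samples went through PicoPure and a labelling kit with a repeated amplification cycle. UNM and BCP samples went through RNeasy, InviTrap and the IVT Express labelling kit. TCP and MPG samples went through CsCl and a labelling kit with a single cycle. Organs of the same stage, UNM and BCP, and TCP and MPG can therefore be compared within 1 set of kits. Poly-A control means still differed inside such sets, with 5.70 in anther TCP and 8.39 in MPG. They were 7.94 in ovary TCP and 5.60 in stigma TCP, and 5.81 in anther UNM and 6.52 in anther BCP. In anthers, ovaries and stigmas at BCP they were 6.52, 6.68 and 6.60. The part of these differences in the members' signals was not tested. Between TET and UNM, and between BCP and TCP, a change of stage and a change of kits cannot be told apart. The samples were organs, apart from the grains, so a signal that is low because few cells of a type were present and one that is low because each cell held little of the RNA cannot be told apart.

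In grasses the microspore divides unequally into a vegetative and a generative cell, which makes the grain bicellular, and the generative cell later divides into the sperm cells, which makes it tricellular before the anther opens. Plants are known to load the maturing grain with transcripts that are kept for germination and for growth of the pollen tube. Genes switched on in the microspore are classed as early pollen genes, and those whose transcripts gather from about the first pollen division up to maturity as late pollen genes.

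Only 1 member, Ta.10341.1.S1_at, had a gene symbol, LOC543126, a locus number with no description. The other 98 had none, so no function is given to any member and they are named by their probe set IDs. Pollen, tapetum and cell wall markers could not be counted among them for the same reason. LOC543126 read 11.05, 11.71 and 11.82 on the anther TCP arrays and 12.20, 12.23 and 12.17 on the MPG arrays. Its anther BCP values were 4.76, 4.64 and 4.75, against 4.83, 4.59 and 4.52 at UNM, so those groups overlapped. It was thus low on every anther array up to BCP and high on every array after it.

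The arrays of a group were alike, which does not test the organ or stage in their labels. Over all probe sets, r between replicates ran from 0.978 to 0.996, all 39 arrays correlated best with an array of their own group, and no pair was identical. The actin control probe set at the 3' end, whose transcript encodes the filament protein of the cytoskeleton on which pollen tubes depend, read from 13.93 to 13.98 in anther TCP and from 14.03 to 14.10 in MPG. The number of arrays limits the precision of every mean. The probes are of wheat sequence and may bind rye transcripts less well, and brightness does not order transcripts of different probe sets by abundance.

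**Figure D1:**
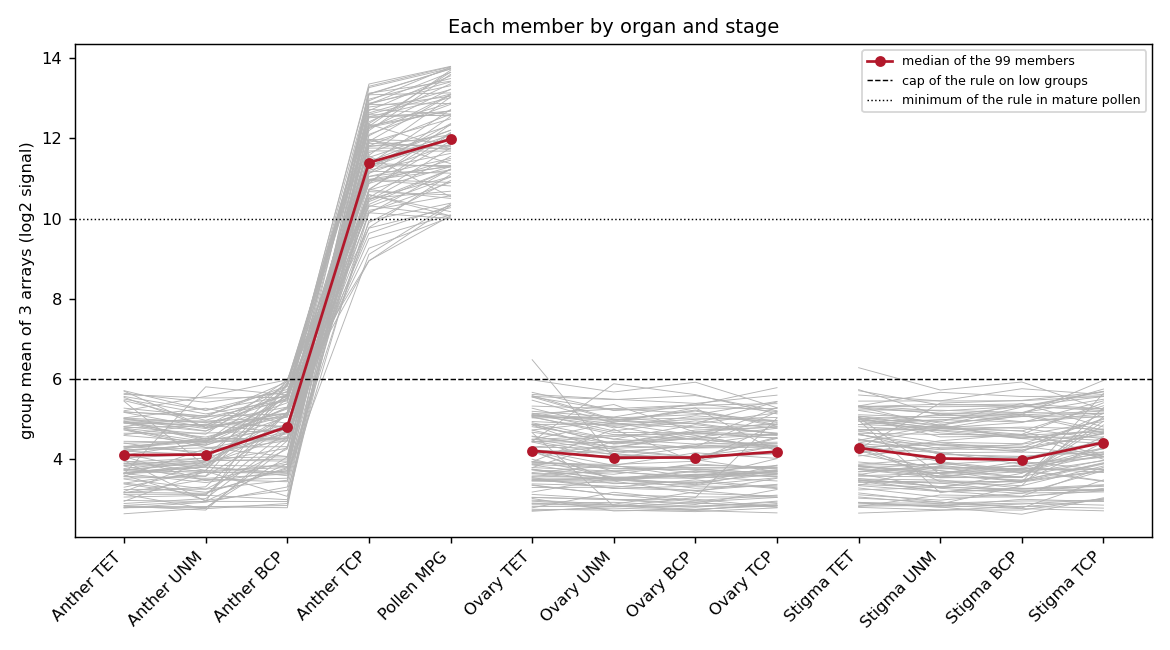
Group mean of each member (grey lines, log2 signal, 3 arrays) by organ and stage, with the median of the 99 members in red, the cap of 6 dashed and the pollen minimum of 10 dotted. The red medians lie between 3.98 and 4.80 in all groups except anther TCP, at 11.39, and MPG, at 11.98.

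The rise between anther BCP and TCP is what selected the members, and it is given as a description. The median over members was 4.80, 4.43 and 5.19 on the BCP arrays and 11.39, 11.57 and 11.37 on the TCP arrays. Every member was higher at TCP on all arrays. The median rise of the group means was 6.73 on the log2 scale, or 106-fold in signal, and the range ran from 3.32 (10.01-fold, Ta.5838.1.A1_at) to 10.43 (1377-fold, TaAffx.128418.48.A1_at). As BCP means were dim, these folds are of signal and may not equal ratios of transcripts. With limma, all 99 were called higher, a call here being a Benjamini-Hochberg adjusted p under 0.05 with a log2 difference of at least 1. Over the 61204 probe sets tested, 25.9% were called at this step and 10.3% were called higher, and nothing is read from the members' count.

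The 5 members with the highest pollen means were Ta.10212.3.S1_at (13.80), Ta.10447.1.S1_a_at (13.78), TaAffx.38102.1.S1_at (13.78), TaAffx.128418.48.A1_at (13.75) and Ta.12014.1.A1_at (13.73). Before TCP they were not alike. TaAffx.128418.48.A1_at read 2.63, 2.84 and 3.04 at BCP, within reach of its 2.83, 2.74 and 2.85 at UNM, and then 12.81, 13.48 and 13.51 at TCP. TaAffx.38102.1.S1_at also overlapped between UNM (4.38, 4.09 and 4.37) and BCP (3.84, 3.96 and 4.39). Ta.10212.3.S1_at had left its UNM level (3.87, 4.23 and 4.21) on all BCP arrays, which read 5.74, 4.53 and 6.54. Ta.10447.1.S1_a_at did the same, with 5.90, 4.21 and 6.78 at BCP against 4.06, 3.37 and 3.73 at UNM. Both had a wide spread at BCP, with replicate 2 lowest and replicate 3 highest.

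That difference ran through the members. At BCP, 82 of the 99 had a higher mean than at UNM, against 47.1% of eligible probe sets. The median difference of the group means was 0.41, against -0.02 over all eligible probe sets. All BCP arrays lay above all UNM arrays for 41 members (41.4%), where 16.9% of all probe sets tested did so. The reverse held for 2 members, against 18.4%, and the groups overlapped for 56, against 64.8% of eligible probe sets. In the same stage and kits, all anther BCP arrays lay above all ovary BCP arrays for 47 members, against 19.9% of all probe sets, and above all stigma BCP arrays for 36, against 18.1%. By limma, 23 members (23.2%) were called, all of them higher at BCP, where 8.29% of all probe sets were called and 4.02% were called higher. The rule capped both means and so limited this difference, and these counts are a description.

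The difference was at least 1 in 23 members and at least 2 in 5, against 4.05% and 1.18% of eligible probe sets. The largest of these differences, chosen after the values were seen, were in TaAffx.114335.1.S1_at, TaAffx.65316.1.A1_at and TaAffx.13144.1.S1_at. TaAffx.114335.1.S1_at went from 3.34, 2.81 and 2.66 at UNM to 5.73, 5.35 and 6.61 at BCP, a log2 difference of 2.96 (SE 0.20). TaAffx.65316.1.A1_at had 6.01, 4.63 and 6.84 at BCP and differed from UNM by 2.26 (SE 0.28). TaAffx.13144.1.S1_at had 6.47, 3.94 and 7.18 and differed by 2.15 (SE 0.36). In the first, all BCP arrays stood well clear of UNM. In the last, replicate 2 was close to its highest UNM value of 3.82.

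The BCP arrays differed from one another more than those of any other anther stage. The median SD of a member over 3 arrays was 0.28 at BCP, 0.17 at TET and at UNM, 0.18 at TCP and 0.078 in MPG. Replicate 3 was the highest BCP array for 78 members and replicate 2 the lowest for 71, against 36.9% and 31.4% of eligible probe sets. The order replicate 3, 1, 2 from high to low was found in 59 members (59.6%), against 17.7% of all probe sets tested. Above the cap of 6 were 19 members on replicate 3, 8 on replicate 1 and 0 on replicate 2. Of eligible probe sets, 33.8%, 34.2% and 34.1% were above 6 on these arrays. The widest ranges over the BCP arrays were 3.60 in Ta.3743.1.A1_s_at (6.03, 2.93 and 6.53), 3.33 in Ta.8249.1.A1_at (4.80, 2.62 and 5.95) and 3.24 in TaAffx.13144.1.S1_at. In the first of these, replicate 2 was below the lowest UNM array, at 3.04, while the other arrays were far above the highest, at 3.13.

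Other pollen signals moved in the same order over these arrays. The actin control at the 3' end read 12.54, 11.95 and 13.08 at BCP, from 4.67, 4.59 and 4.76 at UNM. The actin probe set in the middle of the transcript read 9.45, 8.86 and 10.37. At the 5' end actin read 6.82, 6.59 and 8.04 at BCP, from 6.02, 5.70 and 5.85 at UNM. From BCP to TCP actin rose by 1.44 at the 3' end, 4.43 in the middle and 6.39 at the 5' end. The members' median rise at that step was 6.73. The kits, with the labelling, changed at the same step, and their part in these rises cannot be told apart. Whether the place of the probes on a transcript had a part in the members' dim BCP signals was not tested. The 195 probe sets that met the rule up to UNM but were above 6 at BCP had medians of 9.20, 7.81 and 10.23 on BCP replicates 1, 2 and 3. Spiked-in hybridisation controls did not share that order, with means of 10.78, 10.86 and 10.73, nor did the poly-A controls, at 6.70, 6.504 and 6.35. What made the BCP arrays differ was not tested. Without BCP replicate 3, 13 members were called between UNM and BCP, and without replicate 2, 30. Where the 3 arrays are averaged, the membership rests on them too: the rule kept 119 probe sets without replicate 3 and 83 without replicate 2.

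**Figure D2:**
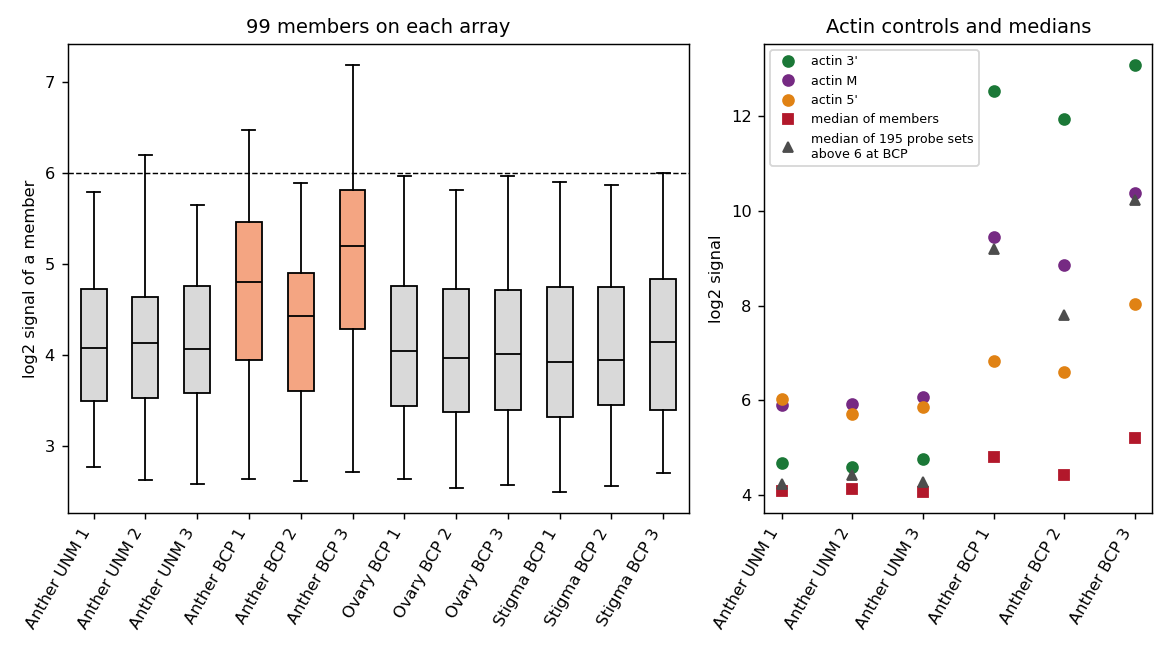
Left, log2 signal of the 99 members on each array of 4 groups (box, quartiles; line, median; whiskers, furthest value within 1.5 times the box length; dashed, the cap of 6), with anther BCP in orange. Right, 3 actin control probe sets, the median of the members and the median of the 195 probe sets that were above 6 at BCP, on each anther UNM and BCP array; all are lowest on BCP replicate 2 and highest on replicate 3 within BCP.

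From anther TCP to mature pollen, within 1 set of kits, the rule allowed a gain of less than 1.5. The members' median was 11.39, 11.57 and 11.37 on the TCP arrays and 11.94, 12.02 and 11.93 on the MPG arrays. The median difference of the group means was 0.58 (1.49-fold), from -1.02 to 1.48, where the rule set the upper end. In 79 members pollen was higher, by under 0.5 in 24, by 0.5 to 1 in 34 and by 1 or more in 21, and in 20 it was lower. All pollen arrays lay above all TCP arrays for 71 members, against 31.3% of the probe sets tested, and all TCP arrays above all pollen arrays for 7, against 19.1%. Limma called 22 members, 21 higher and 1 lower, beside 15.7% of all probe sets (3.98% higher and 11.7% lower). As the rule used this difference, nothing is read from these counts. An anther at TCP is wall tissue and pollen together, so the ratio compares a mixed organ with isolated grains.

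The members that gained most stood just under the limit. Ta.8249.3.S1_at read 10.77, 11.15 and 10.70 at TCP and 12.44, 12.36 and 12.25 in MPG, a difference of 1.48 (SE 0.17). TaAffx.121719.1.S1_at went from 11.34, 11.78 and 11.61 to 12.99, 13.12 and 12.98, by 1.45 (SE 0.12). Then came TaAffx.38179.1.S1_at at 1.42, Ta.10251.2.S1_at at 1.41 and Ta.8249.1.A1_at at 1.40. In each of these 5 the pollen arrays were all above the TCP arrays. Ta.8249.3.S1_at and Ta.8249.1.A1_at carry the same cluster number in their IDs and both gained. Both overlapped with UNM at BCP, Ta.8249.3.S1_at with 5.58, 4.91 and 5.40 against 4.81, 4.62 and 5.30. Ta.8249.1.A1_at read 2.81, 2.63 and 2.74 at UNM, so its BCP replicate 2 stayed at that level while the other BCP arrays were above it.

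At the other end, Ta.4121.2.S1_at was the 1 member called lower in pollen. It read 12.15, 11.40 and 11.13 at TCP and 10.79, 10.35 and 10.50 in MPG, a difference of -1.02 (SE 0.21), and the groups did not overlap. The difference lay close to the minimum for a call. It was -0.72 without anther TCP replicate 1, -0.92 and -0.99 without MPG replicates 2 and 3, and -0.84 with the arrays scaled on the brighter 50% of probe sets, and the call was lost under each of these. TaAffx.28787.1.S1_s_at (12.60, 12.22 and 12.23 at TCP against 11.94, 11.62 and 11.65) and Ta.3972.2.S1_at (12.32, 11.91 and 11.70 against 11.64, 11.23 and 11.23) both differed by -0.61. They missed the minimum log2 difference for a call, although neither overlapped. TaAffx.50380.1.S1_at differed by -0.53 with overlapping arrays, and TaAffx.119873.1.A1_at by -0.42 without overlap.

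**Figure D3:**
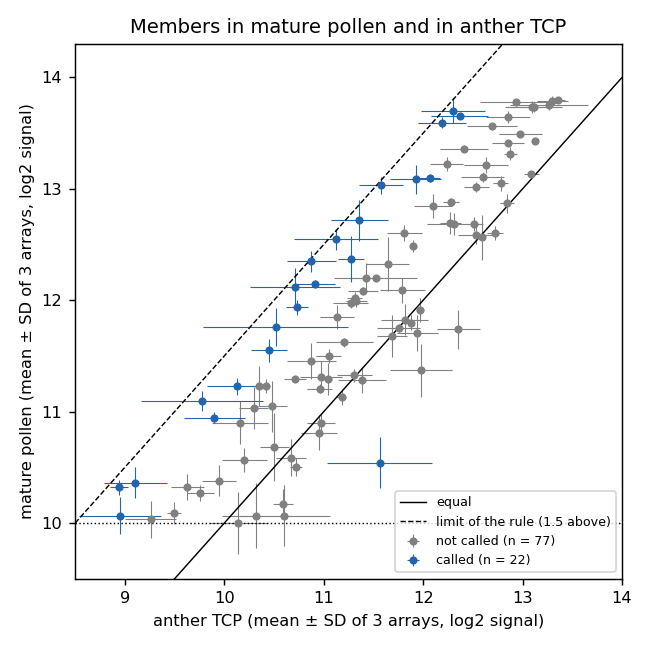
Mean and SD over 3 arrays of each member in anther TCP (horizontal axis) and in MPG (vertical axis), in log2 signal, with the 22 called members in blue, the line of equal signal solid and the limit of the rule dashed. Most points lie between these lines, 20 lie under the line of equal signal, and the 1 called member among those is Ta.4121.2.S1_at.

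Ovaries and stigmas at TET, UNM and BCP took no part in the choice, and the members were dim there. The median over members was 4.20, 4.03 and 4.04 in ovaries and 4.27, 4.01 and 3.98 in stigmas at the 3 stages. Over all eligible probe sets it was 4.89, 4.85 and 4.87 in ovaries and 4.90, 4.87 and 4.89 in stigmas. A typical probe set was thus dim there too. Each member's highest mean over these 6 groups had a median of 4.44 and ranged from 2.79 to 6.48, and 2 of the 99 went above 6. TaAffx.118960.1.S1_s_at was highest in ovary TET, at 6.53, 6.25 and 6.65. Ta.25982.1.S1_at was highest in stigma TET, at 5.95, 6.21 and 6.66, and lay between 5.11 and 6.66 on every ovary and stigma array. The next was Ta.11902.1.A1_at in ovary UNM, at 5.97, 6.53 and 5.13. The members were thus about as dim in the younger pistil as the rule required of the oldest one.

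The rule used none of these 6 groups. It did cap the same organs at TCP, and dim members have little room to fall, so low counts of calls here say little about the members. From UNM to BCP, within 1 set of kits, limma called 0 of the 99 in ovaries, where 1.4% of all probe sets were called, and 0 in stigmas, where 3.61% were. At an unadjusted p under 0.05 there were 7 in each organ. The share over all probe sets at that p is not given, so nothing is read from this count. The smallest adjusted p in ovaries belonged to Ta.3876.2.S1_at, which went from 4.99, 4.87 and 4.36 to 3.77, 3.95 and 4.07, a difference of -0.81 (SE 0.16, limma adjusted p = 0.00157) that missed the minimum log2 difference. Between stigmas and ovaries limma called 1 member at TET (1.82% of all probe sets), 1 at UNM (3.09%) and 0 at BCP (6.89%). At BCP 12 had an unadjusted p under 0.05, again without a share over all probe sets. The member called at TET was TaAffx.118960.1.S1_s_at, lower in stigmas (5.33, 5.10 and 4.68) than in ovaries by 1.44 on the log2 scale, -1.44 (SE 0.20, limma adjusted p = 2.71e-06). The member called at UNM was again Ta.3876.2.S1_at, with 3.70, 3.65 and 3.78 in stigmas, -1.03 (SE 0.16, limma adjusted p = 1.63e-05). That call was lost without ovary UNM replicate 1 (-0.91) or 2 (-0.97), and when arrays were scaled on the brighter 50% of probe sets (-0.94) or on the hybridisation controls (-0.99).

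From TET to UNM, where the kits changed, 3 members were called in each organ, 1 higher and 2 lower at UNM. In ovaries 7.18% of all probe sets were higher and 3.77% lower by the same call, and in stigmas 7.34% and 3.67%. The same 3 members were called in both organs. TaAffx.118960.1.S1_s_at fell from its ovary TET values above to 3.85, 4.37 and 3.88, a difference of -2.44 (SE 0.20, limma adjusted p = 6.29e-12), and in stigmas to 3.58, 3.62 and 3.66, a difference of -1.42 (limma adjusted p = 4.6e-07). TaAffx.12896.2.A1_at fell in ovaries from 4.48, 4.60 and 4.89 to 2.83, 2.62 and 3.01, and in stigmas from 4.95, 5.13 and 4.82 to 3.33, 3.10 and 3.04. Its differences were -1.84 and -1.81 (limma adjusted p = 1.31e-09 and 1.63e-09). At TCP it read 4.97, 4.99 and 5.10 in ovaries and 5.99, 5.39 and 5.55 in stigmas, so among the pistil groups it was low at UNM and BCP. In anthers it read 4.03, 4.18 and 3.66 at TET and 2.81, 3.08 and 2.94 at UNM. Anther BCP, prepared with the same kits as UNM, read 3.83, 3.51 and 4.32, so among the anther groups it was lowest at UNM. Ta.11902.1.A1_at rose, from 4.39, 4.42 and 4.50 in ovary TET by 1.44 (SE 0.26, limma adjusted p = 2.94e-05) and from 4.19, 4.45 and 4.12 in stigma TET by 1.14 (limma adjusted p = 0.00061). The stigma difference was 0.81 without stigma UNM replicate 3, 0.97 with arrays scaled on the brighter 50% of probe sets and 0.33 with arrays scaled on the hybridisation controls, and the ovary difference was 0.95 on that last scaling. Its call was lost under each of these. The part of the kits in these differences cannot be told apart from that of the stage.

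At TCP, where the rule capped both organs, the members were somewhat brighter in stigmas than in ovaries. The medians were 4.40, 4.44 and 4.29 on the stigma arrays and 4.21, 4.17 and 4.07 on the ovary arrays. All stigma arrays lay above all ovary arrays for 39 members (39.4%), against 25.5% of all probe sets tested. The reverse held for 5 members, against 21.1% of all probe sets tested. The median difference was 0.17, from -1.30 in TaAffx.118960.1.S1_s_at to 1.77 in TaAffx.32557.1.S1_s_at, the ends of the range being named after their values were seen. TaAffx.32557.1.S1_s_at read 5.33, 5.38 and 5.15 in stigma TCP, 3.49, 3.53 and 3.53 in ovary TCP, and 3.25, 3.34 and 3.42 in stigma BCP. Among the members with the highest pollen means, Ta.10447.1.S1_a_at read 5.29, 5.39 and 4.48 in stigma TCP against 3.89, 3.42 and 3.37 in ovary TCP, and Ta.10212.3.S1_at 5.02, 5.37 and 5.03 against 4.48, 4.42 and 4.05. TaAffx.128418.48.A1_at did not share this, with 3.04, 3.17 and 2.77 against 2.80, 2.86 and 2.85. The actin control at the 3' end read 5.56, 5.21 and 4.82 in stigma TCP and 4.64, 4.27 and 4.67 in ovary TCP. These signals are all far under those of anther TCP, and the part of pollen RNA in the stigma samples was not tested.

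Between stigma BCP and TCP, 40 members rose without overlap, against 21.9% of all probe sets, and 11 fell without overlap, against 22.9%. In ovaries 22 rose without overlap, against 20.9%, and 15 fell, against 27.9%. The kits changed at that step in both organs. The rule capped the TCP means of both organs, and these counts are a description.

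The IDs show how some members were related. A probe set ID carries the number of the sequence cluster behind it, and 97 members fell into 89 clusters, 82 of them with no other member. The other 2 carry the number TaAffx.128418, as do 112 eligible probe sets with these 2 included, which is too wide to read. IDs with the prefix TaAffx made up 48.5% of the members and 48.6% of eligible probe sets, but 26.2% of the 195 probe sets that were above 6 at BCP. IDs with an A in place of an S before their last number made up 37.4% of the members, 17.4% of eligible probe sets and 32.8% of those 195, and what the letter means is not given in the sources used here. In 7 clusters more than 1 member was found, 15 members in all, and whether these report the same gene was not tested. The 3 members of Ta.10297 differed little between TCP and MPG, by -0.03, -0.10 and -0.22. Both members of Ta.10447 gained in pollen, by 0.49 and 0.79, and both had moved at BCP, by 1.91 and 1.09. In Ta.3743 both gained alike, by 0.79 and 0.71, while at BCP they differed from UNM by 2.07 and 0.38. Probe sets with the suffix _x_at, which marks probe sets with some probes that match other sequences as well, made up 0 of the 99 and 11.1% of eligible probe sets. The suffix _s_at, which marks probes shared by several transcripts, was carried by 5 members, and signals of such probe sets can be sums over related genes.

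In 24 clusters, 33 further eligible probe sets shared the number of a member. Of these, 18 in 14 clusters had a pollen mean of at least 10 too but exceeded 6 at anther BCP. Of these 18, 10 in 7 clusters met every other condition up to UNM. Their step from UNM to BCP is given beside that of the member with the highest pollen mean in the cluster. The cap at BCP parted these probe sets from the members, so the choice itself favoured a larger step in them. The steps are given as a description. Ta.4121.2.S1_at, the member that fell in pollen, differed by 1.23 between UNM and BCP, while Ta.4121.1.A1_at of the same cluster differed by 6.98, from 4.63, 4.94 and 4.87 to 11.72, 11.21 and 12.45. Ta.4494.2.S1_at differed by 0.88, while Ta.4494.1.S1_x_at, Ta.4494.1.S1_at, Ta.4494.3.S1_x_at and Ta.4494.3.S1_at differed by 5.59, 5.19, 4.95 and 4.36. Ta.10198.1.S1_at differed by 0.53 and Ta.10198.2.A1_at by 4.76, from 3.60, 4.08 and 3.66 to 9.10, 6.58 and 9.95. In Ta.10212, Ta.10256 and Ta.10251 the members differed by 1.49, 1.16 and -0.21 and the others by 3.16, 2.93 and 0.80. In TaAffx.23544 the steps were alike, 0.70 and 0.65, and the probe sets were parted by the cap alone. Whether the probe sets of a cluster report different gene copies, transcript ends or binding strengths was not tested.

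**Figure D4:**
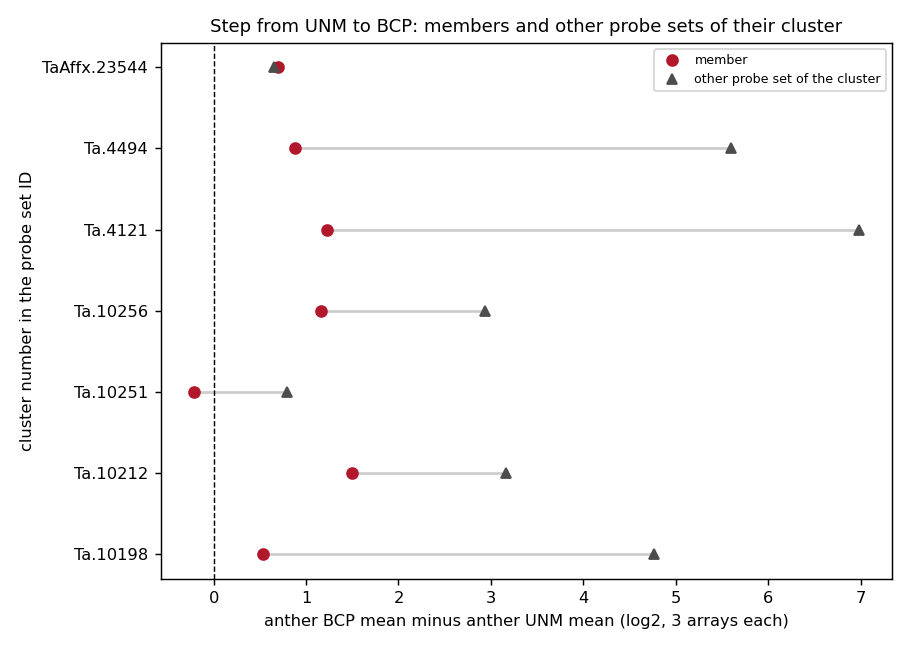
Difference of the anther BCP and UNM means (log2, 3 arrays each) within the member (red circle) and within another probe set of the same cluster number that was above 6 at BCP (grey triangle; the one with the highest pollen mean where there were several), for 7 clusters; the dashed line marks no difference. The other probe set differed more in 6 clusters, by up to 6.98 in Ta.4121, and about equally in TaAffx.23544. As the cap at BCP parted each pair, the choice itself favoured a larger step in the other probe set.

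The edges of the choice were not sharp. The lowest pollen mean among members was 10.002 (TaAffx.38771.1.S1_at), and the nearest probe set left out had 9.96 (TaAffx.50419.1.S1_at). At anther BCP the highest members had 5.98 (Ta.11902.1.A1_at) and 5.97 (TaAffx.92567.1.S1_at), and the nearest left out had 6.003 (Ta.666.1.A1_at) and 6.01 (Ta.3941.1.A1_at). For pollen above anther TCP the last member had 1.48 and the first left out 1.54 (Ta.3533.1.S1_at). In stigma TCP the values were 5.96 (Ta.5838.1.A1_at) and 6.20 (Ta.11931.1.S1_at). The 195 probe sets parted from the members at BCP had a median of 9.03 there, 4.31 at UNM, 12.34 at TCP and 12.27 in MPG. The 15 left out for gaining more in pollen had medians of 5.11 at BCP, 9.14 at TCP and 11.07 in MPG. The cap at BCP and the limit at maturity formed these groups and are the borders of the members. No order of rises in time is therefore read from these medians.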

How the data were processed

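The authors deposited 1 table of log2 signals for the whole series, which the submitters' processing notes credit to RMA. The RMA version, and whether it was run on the 39 arrays jointly, is not given in the sources used here. The method forces arrays to a common distribution. All 99 members and all lists were chosen with earlier results of these data known. The rule's words on names were read as dropping symbols other than locus numbers, from a platform table that named 1273 probe sets.

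Without 86 controls of bacterial, spike-in or tag sequence, 61204 probe sets were tested, with no filter. Limma 3.58.1 in R 4.3.3 fitted a mean for each of 13 groups over 39 arrays (lmFit, eBayes; 26 residual and 7.5 prior degrees of freedom). Simulated arrays with 200 changed probe sets, for ovary UNM to BCP over 61204 probe sets, gave 92% recovery at a log2 size of 1.5 and 100% at 3. Members were named by the highest pollen means, the ends of the pollen against TCP difference, the widest BCP ranges, the highest means outside the rule, calls outside the rule and the nearest values to a threshold; others are said to be chosen after their values were seen. Samples were not paired by replicate number, as no comparison had all 3 correlations of deviations over 0.1. This cannot exclude a pairing: for stigma against ovary at BCP they were 0.08, 0.44 and 0.06.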

Additional observations from a re-analysis of the deposited data

Results flagged for a closer look

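The step from TET to UNM differed between the organs in TaAffx.118960.1.S1_s_at. It fell in ovaries from 6.53, 6.25 and 6.65 to 3.85, 4.37 and 3.88 and in stigmas from 5.33, 5.10 and 4.68 to 3.58, 3.62 and 3.66, so the stigma step was smaller by 1.03 on the log2 scale (interaction, SE 0.28, limma adjusted p = 0.0473 over all probe sets). It was lower at UNM on 3 of 3 arrays in both organs, and the adjusted p lies close to the threshold. It was the 1 member called for this interaction, where 875 of 61204 probe sets were called. For the step from UNM to BCP the interaction called 0 members, against 2012 of 61204 probe sets. Nothing about the members as a set is read from these counts. The kits changed between TET and UNM. The stigma UNM values are close to the floor of the arrays, and whether this made the stigma step smaller was not tested.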

How the results depend on the processing

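Calls of members between anther BCP and TCP stayed at 99 under each alternative run. With no minimum log2 difference the counts were 1 for ovary UNM to BCP, 1 for stigma UNM to BCP, 3 and 5 for stigma against ovary at UNM and BCP, 22 and 13 for ovary and stigma TET to UNM, 51 for anther UNM to BCP and 66 for pollen against anther TCP. Scaling on the hybridisation controls gave 2 and 0 for stigma against ovary at TET and UNM, and 9 and 33 for ovary and stigma TET to UNM, all lower. It gave 47 for anther UNM to BCP, all higher, and 11 for pollen against anther TCP, of which 10 were higher. With this scaling the median difference over all probe sets was 0.36 and 0.06 for stigma against ovary at TET and UNM. It was -0.57 and -0.88 for ovary and stigma TET to UNM, 0.53 for anther UNM to BCP and -0.08 for pollen against anther TCP. Shares over all probe sets are not given for the alternative runs, so their counts show only how far the calls moved. Scaling on the brighter 50% gave 0 for stigma against ovary at UNM, and the compared groups alone gave 15 for anther UNM to BCP. Leaving out an array gave 0 to 1 for ovary UNM to BCP (1 without ovary UNM replicate 3) and for stigma against ovary at UNM and at BCP (1 without ovary BCP replicate 1), 2 to 4 for stigma TET to UNM, 3 to 4 for ovary TET to UNM, 17 to 23 for pollen against anther TCP and 13 to 30 for anther UNM to BCP. The median member difference at that last step was 0.31 to 0.60 when each BCP array was left out, an alternative added after seeing the data.

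The rule gave 1 probe set where only locus numbers were kept and 61 where every array had to meet each threshold. It gave 70 with caps of 5.5, 141 with 6.5, 78 with a pollen mean of at least 11, 106 and 91 with the brighter 50% and the hybridisation controls as scaling (90 and 83 shared with the 99), and 83 to 119 without an array. Median levels under scaling on the brighter 50% were 4.17, 4.03 and 11.57 for anther TET, UNM and TCP, 12.34 for pollen, 4.27, 3.89 and 4.07 for ovary TET, BCP and TCP, and 4.39 for stigma TET. Under the hybridisation controls they were 4.30, 3.52 and 11.09 for anther TET, UNM and TCP, 11.39 for pollen, 4.46, 3.80, 4.12 and 4.53 for ovary TET to TCP, and 4.89, 3.82, 4.19 and 4.64 for stigma TET to TCP. As a mean over members, stigma TET was 4.22 and stigma UNM 4.09. Without an array, the medians ran from 4.05 to 4.17 for anther TET, 4.06 to 4.15 for anther UNM, 4.17 to 4.21 for ovary TET and 3.96 to 4.08 for stigma UNM. The replicate block left every count of called members as it was, 23 for anther UNM to BCP and 22 for pollen against anther TCP among them. Signals near 3 to 5 are close to the floor of the arrays, which limits what can be read from small differences among the dim groups.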
